A study of Homo sapiens with 18 samples.

Results

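SNX19, BEX1, ZNF462 and ZNF883 are 4 human genes, of 14177 in the RNA table, that were less abundant in HEK293T cells of both UBR7KO lines than in parental cells. They were picked by name because their RNA was low in each UBR7KO library of the 3 against 3 comparison, so their levels in that comparison describe the choice and carry no test here. HEK293T is an established human embryonic kidney cell line. UBR7KO cells carry a CRISPR-Cas9 knockout of UBR7, a UBR box protein that the series title calls a chaperone of histone H3. RNA-seq covered 2 libraries of line UBR7KO1 (UBR7KO1-1 and UBR7KO1-2) and 1 library of line UBR7KO2 (UBR7KO2-1), against 3 libraries of parental cells (parental 1, 2 and 3). No group carried a drug or other agent, and all were kept in the same serum-containing medium. The labels do not say whether a line is 1 clone, nor whether replicates are separate cultures, so the spread between libraries may be technical. ATAC-seq, which maps chromatin open to a transposase, covered 2 UBR7KO and 2 parental libraries, and ChIP-seq for GFP covered 1 library of cells whose own UBR7 gene bears a GFP tag.

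Sorting nexins are proteins with a phosphoinositide-binding PX domain that act on endosomal membranes, and SNX19 belongs to a membrane-anchored subgroup with SNX13, SNX14 and SNX25. BEX1 is a small protein of the X-linked BEX and TCEAL family, expressed in brain and studied as an adaptor in neurotrophin receptor signalling. ZNF462 is a large nuclear protein with C2H2 zinc fingers that has been tied to chromatin organisation and development. ZNF883 is a C2H2 zinc finger gene with little described function.

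SNX19 (ENSG00000120451) lies on the minus strand of chromosome 11, from 130745331 to 130786404. BEX1 (ENSG00000133169) lies on the minus strand of chromosome X, from 102317579 to 102319168. ZNF462 (ENSG00000148143) lies on the plus strand of chromosome 9, from 109625378 to 109775915. ZNF883 (ENSG00000228623) lies on the minus strand of chromosome 9, from 115759495 to 115774507, and is typed as a lincRNA in the authors' table. These positions are GRCh37-type coordinates of the files. No other gene of the table overlapped any of the 4. The gene starts are where the ATAC and GFP-UBR7 peaks were read, and 2 of the 4 genes were matched by symbol to a start region, 250 bases before to 50 after the start, in the RefSeq table used here. The stretches come from RefSeq on GRCh38.p14, where BEX1 is chrX:103064122-103064421 on the minus strand and ZNF883 is chr9:113012143-113012442 on the minus strand. Both are printed 5′ to 3′ along the gene, and capitals mark matches to the motifs named after them.
BEX1: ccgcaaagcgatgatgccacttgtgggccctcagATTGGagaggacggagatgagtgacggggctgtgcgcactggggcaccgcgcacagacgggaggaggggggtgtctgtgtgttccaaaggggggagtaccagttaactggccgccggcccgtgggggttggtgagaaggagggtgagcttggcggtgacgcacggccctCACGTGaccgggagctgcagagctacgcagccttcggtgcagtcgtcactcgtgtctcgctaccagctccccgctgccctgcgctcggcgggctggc
ZNF883: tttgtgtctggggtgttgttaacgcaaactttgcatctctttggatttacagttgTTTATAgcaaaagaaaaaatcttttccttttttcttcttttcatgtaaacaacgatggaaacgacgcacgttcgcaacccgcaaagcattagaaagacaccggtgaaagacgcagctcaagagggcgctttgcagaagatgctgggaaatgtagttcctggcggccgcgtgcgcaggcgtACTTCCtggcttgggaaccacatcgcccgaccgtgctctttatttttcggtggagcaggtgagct
On both strands 5 motifs were searched, picked after the sequences had been seen, and none of the matches printed overlaps another. The BEX1 stretch held 1 match to the E-box CACGTG, present in 7.26% of 35116 RefSeq start regions of the same length, and 1 to the CCAAT box (read as ATTGG), present in 34.6%. The ZNF883 stretch held 1 match to the ETS-type word GGAAGT (read as ACTTCC), present in 22.8%, and 1 to the TATA box word TATAAA (read as TTTATA), present in 11.5%. The GC box GGGCGG, present in 44.95% of start regions, was in neither stretch. The BEX1 stretch held 25 CG dinucleotides at a GC content of 67% and the ZNF883 stretch 19 at 47.7%, where the median over all start regions was 14 CG. No motif of the 5 matched in both stretches. A match is to the word alone, at any position of the stretch and on either strand, and its use by the gene was not tested.

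The 6 RNA libraries held 22153291 to 29811908 reads. Date codes in the descriptions pair UBR7KO1-1 with parental 1 and UBR7KO1-2 with parental 2, which gives 2 dated pairs. UBR7KO2-1 and parental 3 have no date code and are treated as an undated pair. UBR7 itself, the targeted gene, stood at 27.0, 26.3 and 64.5 CPM (reads of a gene scaled to a fixed total of counted reads) in UBR7KO1-1, UBR7KO1-2 and UBR7KO2-1, against 55.0, 62.2 and 62.2 CPM in parental 1, 2 and 3. The library labelled UBR7KO2 therefore did not show lower UBR7 RNA, and every value of the UBR7KO2 line below comes from that library. A knockout need not lower RNA, and the labels do not say where the gene was cut. An exact two-sided permutation test of the UBR7 level gave p = 0.4, where 3 against 3 libraries cannot go below 0.1. The summed level of the 9 measured of 10 HEK293 marker genes was 752 to 1082 CPM in UBR7KO and 681 to 1080 CPM in parental libraries. VIM made up most of each sum, at 587 to 830 CPM in UBR7KO and 487 to 821 CPM in parental libraries. PAX2 and LHX1 stood at 0.721 to 3.81 CPM over all libraries. NEFM ran from 27.7 to 211 CPM over UBR7KO and from 62.3 or less to 206 CPM over parental libraries. The sum therefore says little about single markers. Of 9 markers of other cells 3 were in the table (EPCAM, COL1A1 and LUM), with sums of 7.21 to 13.6 CPM in UBR7KO and 12.8 to 15.8 CPM in parental libraries. These ranges overlap, and the markers did not move together. Mean COL1A1 was 7.64 CPM in UBR7KO and 11.5 CPM in parental libraries, EPCAM 1.61 and 1.78 CPM, and LUM 1.49 and 1.16 CPM. The part of these sums in the results below was not tested. In bulk RNA fewer cells with a transcript and less RNA per cell cannot be told apart.

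SNX19 had 1.14, 0.745 and 0.537 CPM in UBR7KO1-1, UBR7KO1-2 and UBR7KO2-1, against 6.60, 3.43 and 3.16 CPM in parental 1, 2 and 3. The highest UBR7KO library lay below the lowest parental one. The mean was 0.806 ± 0.305 CPM in UBR7KO libraries and 4.40 ± 1.91 CPM in parental ones (SD, n = 3 each), 18.3% of the parental level. Relative to the parental library of its own pair, SNX19 kept 17.2% in UBR7KO1-1 (95% exact interval 11.3 to 25.4), 21.7% in UBR7KO1-2 (12.4 to 36.3) and 17.0% in UBR7KO2-1 (9.33 to 29.1). These intervals and those below are computed from recovered read numbers, 16 to 30 in the UBR7KO libraries and 76 to 181 in the parental ones for SNX19, and cover counting error only. The 3 pairs thus gave intervals that overlap one another, although both libraries of the first dated pair were the highest of their group.

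BEX1 had 1.93, 1.33 and 1.98 CPM in UBR7KO1-1, UBR7KO1-2 and UBR7KO2-1, against 6.89, 6.82 and 26.5 CPM in parental 1, 2 and 3. The UBR7KO libraries differed by at most 1.48-fold from each other, while parental 3 was 3.89-fold above parental 2. The mean was 1.75 ± 0.360 CPM in UBR7KO libraries and 13.4 ± 11.3 CPM in parental ones (SD, n = 3 each), 13.0% of the parental level. Within pairs BEX1 kept 28.0% in UBR7KO1-1 (95% exact interval 20.2 to 38.4), 19.6% in UBR7KO1-2 (13.1 to 28.5) and 7.47% in UBR7KO2-1 (5.63 to 9.74). The lower share in the undated pair goes with the high parental 3 level, since UBR7KO2-1 itself was level with UBR7KO1-1. Over the parental libraries 2.65% of the 13697 tested genes spread at least as widely on the log2(CPM + 1) scale. BEX1 and BEX2 are close paralogs, and how reads that match both were counted is not given in the sources used here, so the BEX1 level is uncertain to that extent.

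ZNF462 had 4.09, 1.88 and 1.07 CPM in UBR7KO1-1, UBR7KO1-2 and UBR7KO2-1, against 8.97, 9.07 and 29.9 CPM in parental 1, 2 and 3. Both groups spread widely in CPM, by 3.81-fold over UBR7KO and 3.33-fold over parental libraries. On the log2(CPM + 1) scale, which narrows the spread of low values, 7.70% and 4.37% of tested genes spread at least as widely. The mean was 2.35 ± 1.56 CPM in UBR7KO libraries and 16.0 ± 12.03 CPM in parental ones (SD, n = 3 each), 14.7% of the parental level. Within pairs ZNF462 kept 45.6% in UBR7KO1-1 (95% exact interval 36.0 to 57.4), 20.8% in UBR7KO1-2 (14.8 to 28.6) and 3.60% in UBR7KO2-1 (2.44 to 5.11). None of these 3 intervals overlaps another. UBR7KO2-1 was the lowest of the UBR7KO libraries and parental 3 the highest of the parental ones.

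ZNF883 had 0.341, 0.510 and 0.268 CPM in UBR7KO1-1, UBR7KO1-2 and UBR7KO2-1, against 1.90, 2.53 and 3.47 CPM in parental 1, 2 and 3. It was the least abundant of the 4, with 8 to 13 reads in the UBR7KO libraries and 52 to 101 in the parental ones. The mean was 0.373 ± 0.124 CPM in UBR7KO libraries and 2.63 ± 0.790 CPM in parental ones (SD, n = 3 each), 14.2% of the parental level. Within pairs ZNF883 kept 18.0% in UBR7KO1-1 (95% exact interval 7.79 to 36.8), 20.2% in UBR7KO1-2 (10.1 to 37.4) and 7.74% in UBR7KO2-1 (3.25 to 15.8). ZNF883 was among the 13697 tested genes, which needed more than 1 CPM in at least 3 libraries, through its parental libraries alone. All 4 genes passed that requirement.

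**Figure D1:**
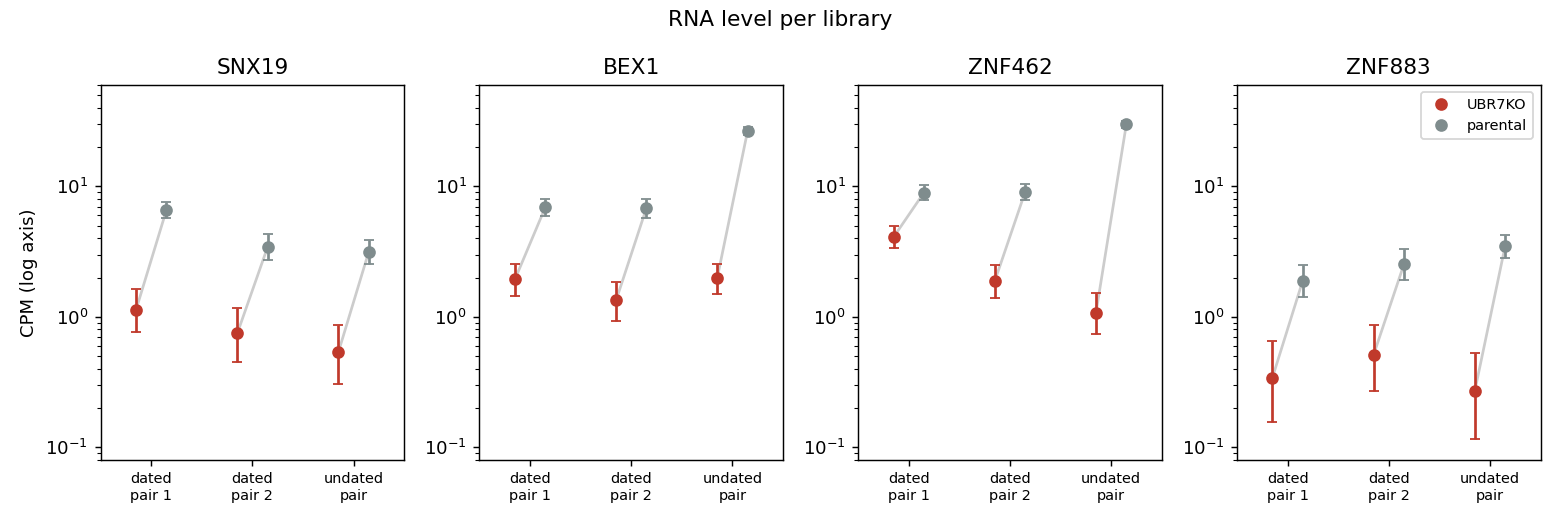
Level of SNX19, BEX1, ZNF462 and ZNF883 in CPM on a log axis, with each UBR7KO library (red) joined to the parental library (grey) of its pair, and 95% exact counting intervals as bars. In each panel every UBR7KO library lies below every parental library, and parental 3 stands out at 26.5 CPM for BEX1 and 29.9 CPM for ZNF462.

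For 4 of these 4 genes the UBR7KO libraries all lay below the parental ones, which held for 169 of the tested genes (1.23%), and nothing is read from that since the levels chose the genes. Per kb of the length given in the table, BEX1 was the most abundant in both groups, at 2.02 CPM per kb in UBR7KO and 15.5 CPM per kb in parental cells. ZNF883 followed at 0.161 CPM per kb in UBR7KO and 1.13 in parental cells. ZNF462 came next at 0.0645 CPM per kb in UBR7KO and 0.438 in parental cells, and SNX19 last at 0.0325 in UBR7KO and 0.177 in parental cells. In UBR7KO the levels per kb of ZNF462 (0.0295 to 0.112) and SNX19 (0.0217 to 0.0459) overlapped, and those of ZNF883 (0.116 to 0.220) stood above both. In parental cells ZNF883 (0.818 to 1.49) and ZNF462 (0.246 to 0.819) overlapped at their ends, as did ZNF462 and SNX19 (0.127 to 0.266). Adjacent genes in this order below BEX1 thus did not all differ beyond their spread.

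The authors' deposited table has 6 genes (0.0423% of 14177) on the lower side of their adjusted p threshold of 0.05, and 0 on the higher side (0%). It holds no gene below 9 reads in parental 1, so a gene silent there and raised in UBR7KO could not be listed. The 4 genes are among those 6, beside the Wnt antagonist SFRP1 and the ligand BMP2. The log2 fold changes of UBR7KO over parental cells in the authors' deposited table were −3.001 for BEX1, −2.88 for ZNF462, −2.86 for ZNF883 and −2.45 for SNX19, with adjusted p of 0.00267, 0.00484, 0.00622 and 0.00622. Next by p, well outside that threshold, stood UNCX and TPM2. In the authors' deposited table UNCX, a homeobox gene, had a log2 fold change of 1.64 (adjusted p = 0.204). TPM2, a tropomyosin, had −2.04 in the authors' deposited table (adjusted p = 0.313). Limma on log2(CPM + 1) over all 6 libraries called 0 genes (0%), although 23 higher and 47 lower genes had an unadjusted p below 0.05, while DESeq2 on the recovered reads called 1 higher and 6 lower.

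Whether the UBR7KO2 pair differed from the UBR7KO1 pairs was asked by a measure that the choice of the genes did not use directly. It is not independent of that choice, since it uses the same libraries. The high parental 3 levels of BEX1 and ZNF462 also widen the group difference in which the genes were chosen. The change within the undated pair minus the mean change within the dated pairs was −2.51 for ZNF462 (log2, SE 0.37, limma adjusted p = 0.000115) and −1.62 for BEX1 (SE 0.35, limma adjusted p = 0.00584). It was −0.65 for ZNF883 (SE 0.37, limma adjusted p = 0.403) and 0.15 for SNX19 (SE 0.37, limma adjusted p = 0.899). Limma called 5.03% of tested genes in this comparison, 3.32% with a lower and 1.71% with a higher change in the UBR7KO2 pair. On TMM scaling the call was lower for 396 and higher for 301 genes, against 455 and 234 here. The UBR7KO2 arm is 1 pair of libraries with no spread of its own, so the p-values take it to vary like the 2 UBR7KO1 pairs, which alone supply the 1 residual degree of freedom. For BEX1 the UBR7KO2-1 level was that of UBR7KO1-1 and the parental 3 level was the high one, while for ZNF462 UBR7KO2-1 was also the lowest UBR7KO library. Line and preparation of the undated pair cannot be told apart.

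The pair itself was then compared: the mean of the 2 undated libraries minus the mean of the 4 dated ones, in both genotypes together. It was 1.00 for BEX1 (log2, limma adjusted p = 0.0682), 0.37 for ZNF462 (adjusted p = 0.708), 0.16 for ZNF883 (adjusted p = 0.587) and −0.41 for SNX19 (adjusted p = 0.136), all by limma. Without UBR7KO2-1 it was 1.81 for BEX1 (limma adjusted p = 9.67e-06) and 1.62 for ZNF462 (6.08e-05), without parental 3 it was 0.19 for BEX1 (0.594) and −0.89 for ZNF462 (0.0144), and edgeR's quasi-likelihood test called BEX1 (1.45, adjusted p = 0.0214). The quasi-likelihood test used all 6 libraries. In the limma fits without UBR7KO2-1 or parental 3 the undated arm is 1 library, assumed to vary like the dated ones. With all 6 libraries limma called 35.1% of tested genes, 1472 higher and 3332 lower, and 2551 and 2204 on TMM scaling. The median over all genes was −0.16 on total scaling and 0.00 on TMM scaling.

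The genes on either side were read to see whether neighbours moved with the 4. Within 1 Mb of the 4 starts lay 47 tested genes, of which 4 were beside SNX19, 21 beside BEX1, 2 beside ZNF462 and 20 beside ZNF883. Their differences between UBR7KO and parental cells had a median of 0.01 on the log2(CPM + 1) scale, beside 0.01 over all tested genes, and ran from −0.36 to 0.79. Limma called 0 of them over all 6 libraries (0% of all tested genes) and 0 in the 2 dated pairs when the fit took each pair as a block, where 3.58% of all tested genes were called, 2.23% higher and 1.36% lower. In none of the 47 did the UBR7KO and parental libraries stand apart, against 2.48% of all tested genes, 1.23% lower and 1.25% higher. Among the 5 nearest tested genes on each side, 1 of 40 stood apart, beside ZNF462 and lower in UBR7KO. The differences of those 40 ran from −0.46 to 0.41. Neither count can be set apart from the share over all tested genes.

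Nearest to SNX19, ADAMTS15, a secreted metalloprotease, averaged 3.12 ± 0.543 CPM in UBR7KO libraries and 4.44 ± 1.79 CPM in parental ones (SD, n = 3 each), the lowest of the 47 differences at −0.36. ZBTB44 averaged 104.6 ± 7.60 CPM in UBR7KO libraries and 100.6 ± 10.6 CPM in parental ones, and APLP2, of the amyloid precursor family, 408.6 ± 91.8 CPM in UBR7KO libraries and 375.8 ± 103.4 CPM in parental ones. On its other side IGSF9B, JAM3 and VPS26B lie over 3 Mb away, with differences of 0.24, 0.00 and 0.22. ZFP37, a zinc finger gene 44.5 kb from ZNF883, averaged 7.86 ± 1.51 CPM in UBR7KO libraries and 8.67 ± 2.81 CPM in parental ones. The copper transporter relative SLC31A2 averaged 3.50 ± 1.32 CPM in UBR7KO libraries and 2.96 ± 0.322 CPM in parental ones. The other 4 of the nearest genes to ZNF883 (KIAA1958, INIP, SNX30 and FKBP15) lay between −0.14 and 0.15. Beside ZNF462, RAD23B, a nucleotide excision repair factor, averaged 275.8 ± 31.5 CPM in UBR7KO libraries and 295.5 ± 13.7 CPM in parental ones, and KLF4, a transcription factor, 3.30 ± 1.41 CPM in UBR7KO libraries and 3.94 ± 1.30 CPM in parental ones. FSD1L, TMEM38B and IKBKAP lie beyond 1 Mb of ZNF462, with differences of −0.16, −0.04 and 0.04. In the fit over all 6 libraries, which did not take the pairs as a block, these differences are smaller than their SE or little above it. Their groups overlap. In the dated pairs with the block, SLC31A2 stood at 0.40 (SE 0.21), VPS26B at 0.39 (SE 0.14) and FSD1L at −0.31 (SE 0.22). None of these was called.

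**Figure D2:**
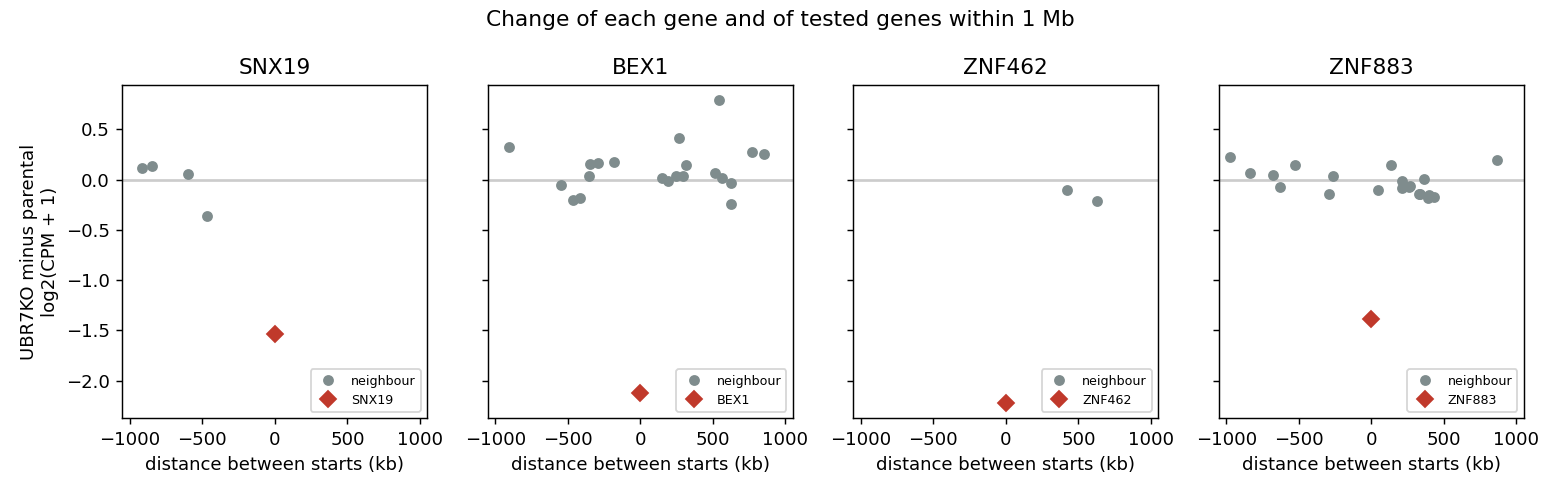
Difference between UBR7KO and parental cells in log2(CPM + 1) for each of the 4 genes (red) and for tested genes starting within 1 Mb (grey), by distance in kb between starts along the chromosome. The neighbours range from −0.36 to 0.79, and each of the 4 genes lies at −1.38 or below.

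BEX1 sits among its own family on the X chromosome. Of 16 listed BEX and TCEAL symbols 11 were in the table, and of the 10 besides BEX1, 9 had a positive difference and 1 a negative one, with a median of 0.05 where all tested genes had 0.01. Limma called 0 of the 10 over all 6 libraries (0% of all tested genes) and 0 within the dated pairs fitted with that block (3.58% of all tested genes), and so few genes cannot be set apart from that share. BEX4 averaged 113.6 ± 34.3 CPM in UBR7KO libraries and 110.8 ± 26.1 CPM in parental ones (SD, n = 3 each). NGFRAP1, also called BEX3, averaged 274.9 ± 37.2 CPM in UBR7KO libraries and 249.2 ± 35.4 CPM in parental ones. TCEAL3 had 2.35, 7.30 and 9.53 CPM in UBR7KO1-1, UBR7KO1-2 and UBR7KO2-1, against 1.53, 3.11 and 4.43 CPM in parental 1, 2 and 3, and its groups overlap. TCEAL7 averaged 1.92 ± 1.29 CPM in UBR7KO libraries and 1.06 ± 0.480 CPM in parental ones, and BEX5 3.85 ± 1.69 CPM in UBR7KO libraries and 2.77 ± 0.972 CPM in parental ones. TCEAL1, TCEAL4, TCEAL8 and WBP5 lay between −0.02 and 0.06 over all 6 libraries. Within the pairs, in the order above, TCEAL3 differed by 0.40, 1.01 and 0.96, and TCEAL7 by 0.63, 0.77 and −0.17. In the dated pairs with the block, TCEAL3 stood at 0.71 (SE 0.21), TCEAL7 at 0.70 (SE 0.21) and BEX2 at −0.28 (SE 0.12), none called. The median of the 10 was 0.08 there, beside 0.03 over all tested genes.

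BEX2, the closest relative of BEX1, had 51.9, 76.7 and 85.3 CPM in UBR7KO1-1, UBR7KO1-2 and UBR7KO2-1, against 66.6, 88.1 and 53.4 CPM in parental 1, 2 and 3. Its change in the undated pair exceeded that in the dated pairs by 0.94 (log2, limma adjusted p = 0.00649). The differences within pairs were −0.35, −0.20 and 0.67, so BEX2 was higher in the UBR7KO2 pair where BEX1 was furthest below its partner. It was the 1 neighbour of the 47 called in that comparison, which is no larger a share than the 5.03% of all tested genes. Also near BEX1, BHLHB9, LINC00630 and ENSG00000239407 had differences of 0.15, 0.16 and 0.17.

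**Figure D3:**
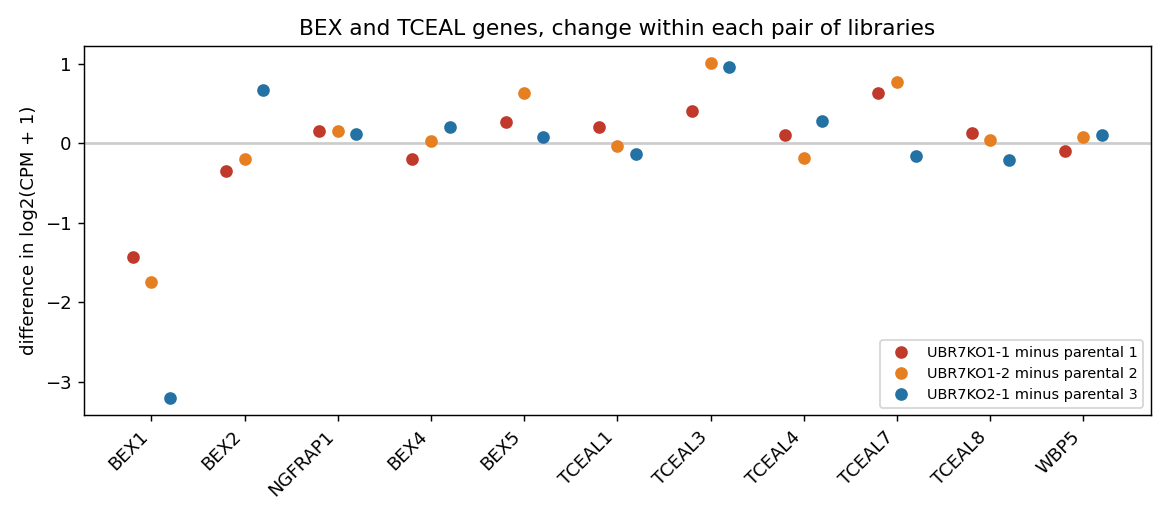
Difference in log2(CPM + 1) within each pair of libraries for the 11 BEX and TCEAL genes in the table, UBR7KO1-1 minus parental 1 (red), UBR7KO1-2 minus parental 2 (orange) and UBR7KO2-1 minus parental 3 (blue). BEX1 lies at −1.43, −1.74 and −3.21, below each of the other 10 genes in each pair.

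The sorting nexins other than SNX19 gave 15 positive and 12 negative differences among 27 tested, with a median of 0.01, and limma called 0 over all 6 libraries and 0 in the dated pairs with the block, where 0% and 3.58% of all tested genes were called. Of its subgroup, SNX13 averaged 53.0 ± 3.32 CPM in UBR7KO libraries and 50.4 ± 3.43 CPM in parental ones, and SNX14 48.9 ± 21.2 CPM in UBR7KO libraries and 42.1 ± 15.2 CPM in parental ones (SD, n = 3 each). SNX25 averaged 35.1 ± 6.82 CPM in UBR7KO libraries and 33.2 ± 6.84 CPM in parental ones. The differences furthest from 0 were those of SNX22 at 0.42, SNX11 at −0.28 and SNX5 at −0.25. SNX5, a retromer-associated nexin, had 155.0, 138.5 and 145.7 CPM in UBR7KO1-1, UBR7KO1-2 and UBR7KO2-1, against 179.6, 160.2 and 182.1 CPM in parental 1, 2 and 3, and was the 1 nexin of the 27 whose groups did not overlap, which held for 2.48% of all tested genes. Its difference was not called by limma. SNX17, an endosomal recycling adaptor, was the 1 of 27 called in the comparison of pairs, where 5.03% of all tested genes were called, at −0.86 (log2, limma adjusted p = 0.0239), with 73.8, 28.1 and 36.5 CPM in UBR7KO1-1, UBR7KO1-2 and UBR7KO2-1, against 56.0, 25.8 and 56.1 CPM in parental 1, 2 and 3.

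Of the 11 other zinc finger genes of chromosome 9, 5 had positive and 6 negative differences, with a median of −0.0013 and limma calling 0 over all 6 libraries, 0 in the dated pairs with the block and 0 in the comparison of pairs, where 0%, 3.58% and 5.03% of all tested genes were called. The differences furthest from 0 were 0.29 for ZNF510, −0.28 for ZNF658 and 0.19 for ZNF618. ZNF510 averaged 15.8 ± 2.37 CPM in UBR7KO libraries and 12.7 ± 1.84 CPM in parental ones, and ZNF658 2.91 ± 0.963 CPM in UBR7KO libraries and 3.69 ± 0.627 CPM in parental ones. Nothing particular to ZNF462 and ZNF883 follows from these counts, as the lists were not tested as sets.

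The genes most like each of the 4 over the 6 libraries were named by Pearson's r on log2(CPM + 1), as a description with no test, since 6 libraries that share 3 preparations and a group difference give high values easily. SNX19 was most like BMP2 (r = 0.995), UVRAG (0.993) and FAM219A (0.955). BMP2 had 1.33, 0.549 and 0.503 CPM in UBR7KO1-1, UBR7KO1-2 and UBR7KO2-1, against 7.48, 3.70 and 3.91 CPM in parental 1, 2 and 3. BEX1 was most like ENPP2 (0.992), SHROOM3 (0.974) and TPM2 (0.964), and TPM2 had 3.94, 5.53 and 6.54 CPM in UBR7KO1-1, UBR7KO1-2 and UBR7KO2-1, against 10.98, 10.5 and 42.2 CPM in parental 1, 2 and 3, with the same high parental 3. ZNF462 was most like CASP10 (0.982), RAP1GAP2 (0.975) and VAMP8 (0.966). ZNF883 was most like AFAP1L1 (0.974), IRF8 (0.966) and PPFIBP2 (0.948). An r of at least 0.95 was reached by 4 of 12500 genes with SNX19, 9 with BEX1, 6 with ZNF462 and 2 of 12501 with ZNF883. A high r does not mean a difference of like size. In the same order of libraries, UVRAG had 23.3, 23.2 and 23.0 CPM in UBR7KO, against 28.2, 26.2 and 25.9 CPM in parental libraries. SHROOM3 had 22.2, 21.6 and 22.5 CPM in UBR7KO, against 24.2, 23.8 and 25.3 CPM in parental libraries.

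ATAC peaks at the 4 gene starts were read to see whether the chromatin there was listed as open. The UBR7KO libraries gave 15310 and 45920 peaks and the parental libraries 10507 and 38529, each called alone by the authors. The second library of each genotype lists more, and the cause was not tested. The line behind the UBR7KO ATAC libraries is not named, but their descriptions carry the code of UBR7KO2-1. Of 16 combinations of gene and library, 3 had a peak within 1 kb of the start, 1 in UBR7KO and 2 in parental libraries. ZNF462 had a peak in UBR7KO ATAC 2 from 109626095 to 109626187, 717 bases into the gene, at a −log10 q of 4.95, and in parental ATAC 2 from 109626057 to 109626340, 679 bases in, at 1.43 (GRCh37-type coordinates). BEX1 had a peak in parental ATAC 2 alone, from 102318817 to 102319054 and 114 bases into the gene, at a −log10 q of 0.568. SNX19 and ZNF883 had no peak within 1 kb in any of the 4 libraries. Among all tested genes 70.5% and 83.3% had one in UBR7KO ATAC 1 and 2 and 55.5% and 80.8% in parental ATAC 1 and 2. Among the 3925 tested genes at the parental level of the 4 (2.63 to 16.0 CPM) those shares were 62.4% and 79.4% in UBR7KO ATAC 1 and 2 and 45.8% and 75.3% in parental ATAC 1 and 2. No peak in any library was found for 15.2% of tested genes and 18.5% of those at that level. Counted over 4 genes, an effect of UBR7KO on these starts was not detectable.

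The nearest peaks of SNX19 lay 54.2 and 21.9 kb from its start in UBR7KO ATAC 1 and 2, and 467.6 and 21.9 kb in parental ATAC 1 and 2. The one at 21.9 kb lies inside the gene. The nearest peaks of ZNF883 lay 44.1 to 49.3 kb away, at or near the start of ZFP37. Of the 24 nearest neighbours of the 4 genes, 20 had a peak at the start in all 4 libraries and 3 (TCEAL8, ZFP37 and SLC31A2) in 3, where 52.9% of all tested genes had one in all 4. The noncoding ENSG00000239407 beside BEX1 had one in 0. Other starts of the 4 genes were not looked at.

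A GFP-UBR7 peak stood within 1 kb of the start for 0 of the 4 genes, where 24.9% of tested genes had one among 5895 peaks. Among the 3925 tested genes at the parental level of the 4 the share was 20.8%. A count over 4 genes cannot be set apart from these shares. The nearest lay 846 kb from SNX19, 246 kb from BEX1, 992 kb from ZNF462 and 44.7 kb from ZNF883, and none fell within 10 kb, where 31.4% of tested genes had one. Of the 24 neighbours, APLP2, BEX2, FSD1L, INIP and ZFP37 had a GFP-UBR7 peak at the start, and those nearest to SNX19, BEX1 and ZNF883 stand at APLP2, BEX2 and ZFP37. With 1 ChIP library there is no replicate check of these positions.

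**Figure D4:**
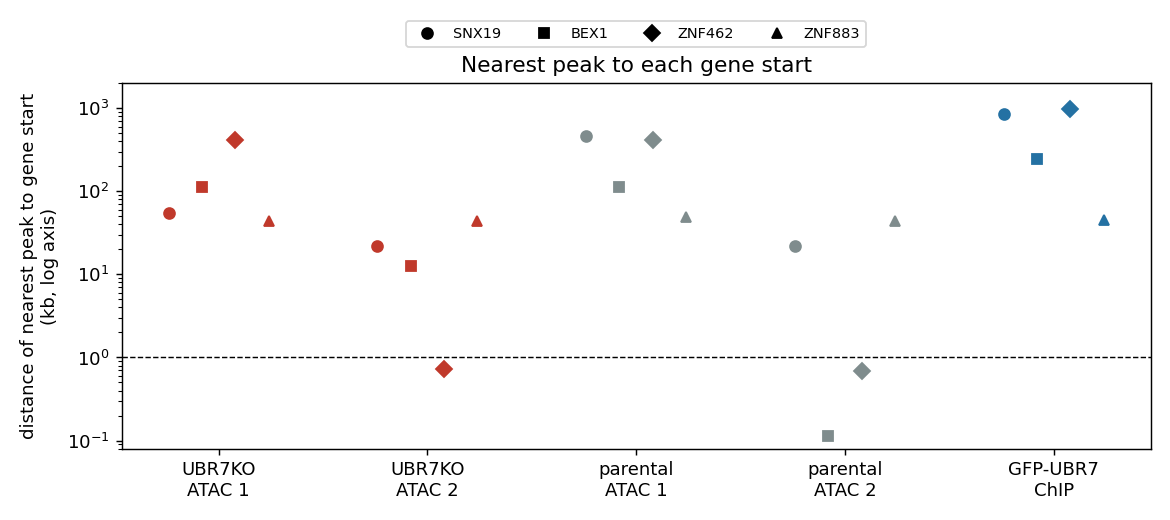
Distance in kb, on a log axis, from each gene start to the nearest peak in the 2 UBR7KO ATAC libraries (red), the 2 parental ATAC libraries (grey) and the GFP-UBR7 ChIP library (blue), with 1 kb dashed. Points under the line are ZNF462 in UBR7KO ATAC 2 and parental ATAC 2, and BEX1 in parental ATAC 2.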

How the data were processed

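RNA-seq, ATAC-seq and GFP ChIP-seq of HEK293T cells were used, and the 6 CUT&RUN samples were not analysed here. TopHat2 2.1.0, HTSeq 0.6.1, edgeR, Bowtie2 2.3.1 and MACS2 are among the tools in the submitters' processing notes, which name hg19 and hg38 without a role. The deposited RNA table holds CPM per gene and library. All values were whole multiples of 1 step per library (tolerance 1e-06), from which reads were recovered. The lowest value in parental 1 is 9 reads, against 0 or 1 in the other libraries, so genes lower than that in parental 1 are not in the table. Log2 fold changes, mean log2 CPM, p-values and the likelihood ratio score in the same table are the authors', per the file headers, with design and adjustment not stated. Gene lengths were taken as summed exon lengths. The deposited ATAC lists give the −log10 q per broad peak, and the deposited GFP-UBR7 list and replicate-shared regions give a score of no stated scale, not used here.

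Genes above 1 CPM in at least 3 libraries (13697) were fitted with limma 3.58.1 (trended, robust) on log2(CPM + 1) in R 4.3.3, and called at a Benjamini-Hochberg adjusted p under 0.05. edgeR 4.0.16 and DESeq2 1.42.0 ran on recovered reads. The limma and edgeR quasi-likelihood fits were tested on simulated data, and the DESeq2 and likelihood ratio fits were not. Scripts used Python 3.11.15, pandas 2.3.3 and scipy 1.17.1. Same-pair libraries deviated together from their group means (r across genes 0.758, 0.736 and 0.633, others −0.443 to −0.251), so the date pairs served as a block. The undated pair rests on the missing date, and the labels do not state it. Its r of 0.633 is no separate evidence for that pairing. Deviations from a mean of 3 libraries cancel within each group, so this r follows from the dated libraries.

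The genes, lists and tests were chosen with earlier results of these data known. Named genes were the 4 members, UBR7, the 3 nearest tested genes on each side, neighbours within 1 Mb called in any fit and the 3 genes most like each. All measured BEX and TCEAL genes were also named, with called members of the other lists or else their 3 largest differences. The last were the 2 genes next by p outside the authors' threshold. Of the nearest genes, 1 is not reported here. Alternatives were another pseudocount, TMM scaling, no filter, other tools, the block and leaving out each library.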

Additional observations from a re-analysis of the deposited data

Results flagged for a closer look

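The change in the UBR7KO2 pair and the mean change in the UBR7KO1 pairs differed by limma's test of that difference for 5 of the genes reported, on the log2 scale. The difference was −2.51 for ZNF462 (limma adjusted p = 0.000115), −1.62 for BEX1 (0.00584), 1.15 for UBR7 (0.00176), 0.94 for BEX2 (0.00649) and −0.86 for SNX17 (0.0239), the limma adjusted p standing in brackets. For ZNF462 and BEX1 all 3 pairs had the UBR7KO library lower, and the adjusted p over the alternatives ran from 5.44e-05 to 0.000143 for ZNF462 and from 0.00394 to 0.0197 for BEX1. For UBR7 the library labelled UBR7KO2 stood at 103.6% of its partner, against 49.1% and 42.4% in UBR7KO1-1 and UBR7KO1-2. Each of these tests rests on 1 UBR7KO2 library and 1 residual degree of freedom, and 5.03% of all tested genes were called.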

How the results depend on the processing

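For the 4 genes the difference between UBR7KO and parental cells moved by less than the spread between libraries in 34 of 36 alternatives. That it stayed negative in all 36 is no support. In each gene every UBR7KO library lay below every parental one, so leaving out a library could not change the sign. The block leaves the difference itself unchanged. With a pseudocount of 0.1 it was −2.29 for SNX19 (−1.54 with 1) and −2.52 for ZNF883 (−1.38 with 1). With each library left out it ran from −1.70 to −1.26 for SNX19, −2.43 to −1.52 for BEX1, −2.58 to −1.68 for ZNF462 and −1.54 to −1.22 for ZNF883. Over all 6 libraries limma called 0 genes, also with the date pair as a replicate block, and each left-out library gave 0, while edgeR's quasi-likelihood test called 0, DESeq2 7 and edgeR's likelihood ratio test (added after seeing the data) 6. In the dated pairs limma without the block called 0 (116 higher and 102 lower genes had an unadjusted p below 0.05), with the replicate block 491 and DESeq2 24. Leaving out 1 library there, also added after seeing the data, gave 1 to 20 calls, with 2 without UBR7KO1-1, 1 without UBR7KO1-2, 19 without parental 1 and 20 without parental 2. Calls between the undated and dated pairs ran from 1870 (without UBR7KO1-2) to 5034 with a library left out, against 4804, with 2775 without parental 1 and 2554 without parental 2. The difference between pairs for SNX19 changed sign with a pseudocount of 0.1 (−0.10) and in edgeR's quasi-likelihood test (−0.12), passing no threshold. The undated minus dated difference reversed for ZNF462 without parental 1 (−0.10) and without parental 3 (−0.89), and for ZNF883 without parental 3 (−0.17). With each library left out it ran from −0.89 to 1.62 for ZNF462 and from −0.17 to 0.48 for ZNF883, both highest without UBR7KO2-1. At a −log10 q of at least 5, 0 of 16 combinations of gene and library had an ATAC peak at the start, where 1.29% and 11.7% of tested genes had one in UBR7KO and 1.27% and 4.04% in parental ATAC 1 and 2. The cause of these shifts was not tested. Leaving out a library could not be run for the difference between pairs, which then has no residual degrees of freedom. At 8 to 30 reads per UBR7KO library for SNX19 and ZNF883, counting error limits each share within a pair.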
